A study of Mus musculus with 6 samples.

Results

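Transcripts of liver cells and liver tumour cells were followed in RNA of macrophages taken from mouse liver tumours, hepatocellular carcinoma (HCC) in the series title. The set holds 39 genes, chosen by symbol, of the 55291 rows of the deposited table. It falls into 31 mature hepatocyte genes, 4 oncofetal genes, and 4 epithelial and biliary genes, and all 39 were found in the table. The study compared tumour-associated macrophages (TAM) of liver tumours labelled TREM2 positive (TREM2+) with TAM labelled TREM2 negative (TREM2-), with 3 libraries in each group. The labels give no strain, age, tumour model or treatment, and they do not say how the cells were sorted or whether animals were pooled. The labels do not tie the replicates to different mice or tumours. Each p-value therefore rests on library-to-library spread, which may be technical.

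Hepatocytes are the main parenchymal cells of the liver. They make most plasma proteins, among them albumin, apolipoproteins, protease inhibitors and fibrinogen, under factors such as HNF4A and C/EBP alpha, and they carry out bile acid, urea and drug metabolism. Oncofetal genes such as Afp, Gpc3, H19 and Igf2 are active in the fetal liver, largely silent in adult hepatocytes and often active again in hepatocellular carcinoma. Krt8 and Krt18 are keratins of simple epithelia including hepatocytes, while Krt19 and Epcam mark bile duct and progenitor cells.

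The shared setting of these genes in the genome is shown for Alb and Afp, neighbours of the albumin gene family on chromosome 5 that stood at different levels and orders in the libraries. Each line gives the 250 bases before the transcription start in RefSeq (GRCm38.p6), read 5′ to 3′ on the gene's strand. Capitals mark matches to TTGCNNAA (C/EBP, both strands) and TATAAA (same strand). The regions are chr5:90460620-90460869 (+) for Alb and chr5:90490464-90490713 (+) for Afp, which encodes alpha-fetoprotein.
Alb: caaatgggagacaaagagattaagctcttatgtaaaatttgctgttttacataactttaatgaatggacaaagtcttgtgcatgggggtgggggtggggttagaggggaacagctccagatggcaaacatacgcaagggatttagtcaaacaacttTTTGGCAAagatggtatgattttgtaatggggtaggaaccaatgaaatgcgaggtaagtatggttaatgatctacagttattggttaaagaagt
Afp: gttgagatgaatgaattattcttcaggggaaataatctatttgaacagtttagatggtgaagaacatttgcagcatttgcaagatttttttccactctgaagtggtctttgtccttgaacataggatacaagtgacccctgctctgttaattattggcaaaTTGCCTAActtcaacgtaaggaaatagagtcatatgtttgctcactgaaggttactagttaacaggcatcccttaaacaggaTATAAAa
The Afp stretch holds a C/EBP match and a TATA match, and the Alb stretch a C/EBP match. Of the 31 mature members, 26 had an entry. The C/EBP letters occurred before 42.3% of these 26 genes and before 10.84% of all 27025 genes with an entry, and the TATA letters before 26.9% and 8.94%. The HNF4 letters CAAAGTCCA, on both strands, occurred before 1 of the 26, Cyp3a11, and before 0.45% of all genes. A match describes letters only.

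Depth, recovered from the deposited values, ran from 11493465 to 19929829 reads per library. Mitochondrially encoded transcripts took 2.42% to 12.35% and a repeat family named after Gm10800 took 0.43% to 24.60% of a library. Macrophage genes stood high in all 6 libraries, though unevenly between the groups. Lyz2 stood at 31826 ± 4801 TPM (SD, n = 3) in TREM2+ and 64190 ± 7893 TPM in TREM2- with no overlap (not called). By contrast, 3 of 9 listed macrophage genes, C1qa, C1qb and C1qc, were called higher in TREM2+, as were 2.05% of all genes tested. C1qb stood at 6170 ± 832 against 989 ± 373 TPM. Trem2 stood at 37 ± 5.51 TPM (SD, n = 3) in TREM2+ against 19.5 ± 2.28 TPM in TREM2-, with no overlap. Of all genes tested, 9.07% lay higher and 7.62% lower in TREM2+ without overlap. TPM here means the deposited length-scaled value rescaled to a total of 1000000 in each library. Trem2 had a log2 fold change of 0.89 ± 0.22 (SE) and an adjusted p of 0.0855 in limma, and an exact permutation test gave p = 0.1, two-sided, the smallest that 3 against 3 allows.

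Hepatocyte transcripts were present in every macrophage library, and they were highest in 1 library of each TREM2 group, with both groups overlapping. The 31 mature hepatocyte genes together reached 1287, 499 and 579 TPM in TREM2+ replicates 1, 2 and 3, and 1887, 306 and 359 TPM in TREM2- replicates 1, 2 and 3. Both libraries numbered 1 were high and the other 4 low. As a share of all TPM these sums were at most 0.189%. The group means were 788 ± 434 TPM in TREM2+ and 851 ± 898 TPM in TREM2- (SD, n = 3). Within one number the direction changed: the sum in TREM2+ was 0.682 times that in TREM2- for replicate 1, 1.63 times for replicate 2 and 1.61 times for replicate 3. In bulk RNA, fewer hepatocytes and less RNA per hepatocyte cannot be told apart, nor can RNA inside macrophages be told from RNA of other cells.

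**Figure D1:**
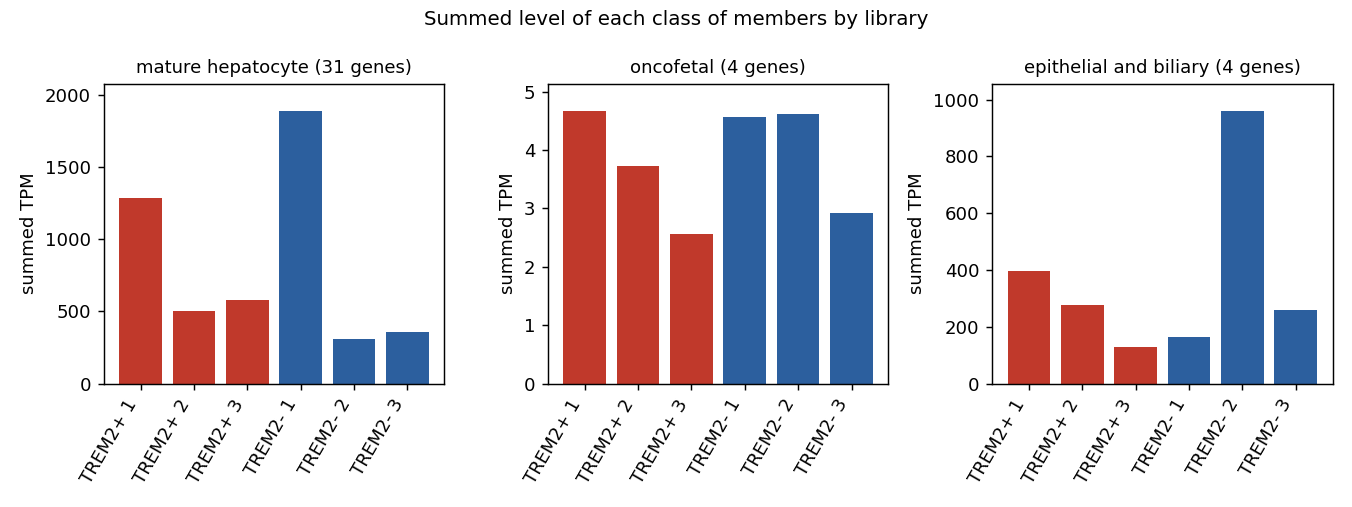
Summed TPM (y axes, starting at 0) of the 31 mature hepatocyte, 4 oncofetal, and 4 epithelial and biliary members in each of the 6 libraries (x axes, TREM2+ in red, TREM2- in blue). The mature sum is highest in TREM2- replicate 1 (1887 TPM) and TREM2+ replicate 1 (1287 TPM), the epithelial and biliary sum in TREM2- replicate 2 (960 TPM), and the oncofetal sum stays between 2.57 and 4.67 TPM.

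None of the members was called different between TREM2+ and TREM2- macrophages. Of the 39 members, 33 passed the filter of at least 1 TPM in at least 3 libraries, 27 of them mature hepatocyte genes. Limma called 0 of the 33 higher and 0 lower at an adjusted p under 0.05, where 2.05% of all 13788 genes tested were called higher and 0.37% lower, 282 and 51 genes. These became 206 and 92 genes on the deposited values without rescaling and 284 and 101 genes without the repeat family, each with 0 members. Unadjusted p was under 0.05 for 1 member, Tat, with voom on recovered reads calling 0 as well. Adjusted p-values of the members ran from 0.254 to 0.997. Estimates were positive for 16 and negative for 11 of the 27 mature genes tested, with a median log2 fold change of 0.30 beside -0.09 over all genes tested. With median-of-ratios scaling 20 of the 27 were positive. The intervals were wide: the standard error had a median of 0.65 over these 27 genes and of 0.27 over all genes tested, and for 19 of the 27 the 95% interval held both a log2 fold change of -1 and one of 1. With the replicate number as a block, a pairing that the labels do not state, many of these intervals were narrower. Alb had 0.39 ± 0.30 (95% interval -0.38 to 1.16) beside an SE of 0.79 in the main fit, and Apoa1 0.50 ± 0.30 beside 0.76. The SE of Tat hardly changed, at 0.36 beside 0.37. Limma with the block also called 0 members. With library weights, which let noisy libraries count less, 5 members (Fga, Hpx, Mup3, Mup20 and Vtn) were called higher, with log2 fold changes from 1.77 to 3.79, where 7.08% of all genes were called higher and 9.9% in either direction.

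**Figure D2:**
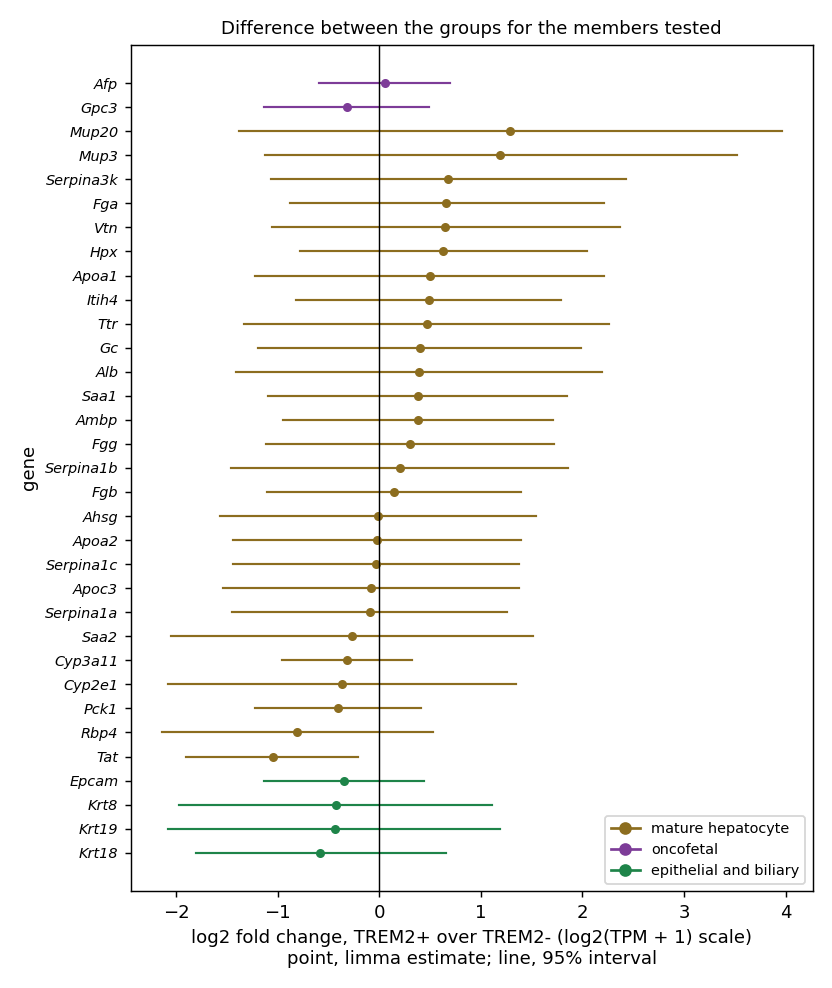
Log2 fold change of TREM2+ over TREM2- on the log2(TPM + 1) scale (x axis; point, limma estimate; line, 95% interval, n = 3 against 3) for the 33 members tested (y axis), coloured by class. Every interval except that of Tat (-1.90 to -0.21) includes 0, and the widest is that of Mup20 (-1.38 to 3.96).

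Plasma carrier proteins, with 1 exception, shared 1 pair of highest libraries. Alb (chromosome 5, 90460897 to 90476602, mm10), which encodes albumin, stood at 74.4, 21.5 and 22.7 TPM in TREM2+ replicates 1, 2 and 3 and at 104, 12.3 and 11.9 TPM in TREM2- replicates 1, 2 and 3. These values rested on 1344, 359 and 341 reads and on 2162, 214 and 179 reads. Both libraries numbered 1 lay above the other 4, and among those 4 both TREM2+ libraries lay above both TREM2- libraries. The log2 fold change of Alb was 0.39 ± 0.79 (SE, limma), with a 95% interval from -1.41 to 2.19. Without TREM2- replicate 1 it was 1.39 ± 0.52 with an adjusted p of 0.296, and it turned to -0.18 when TREM2+ replicate 1 was left out, to -0.10 when TREM2- replicate 2 was, and to -0.12 when TREM2- replicate 3 was.

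Hpx (chromosome 7), the haem-binding plasma protein hemopexin, stood at 71.9, 40.1 and 57.6 TPM in TREM2+ and at 107, 13.2 and 29.8 TPM in TREM2-. It kept the highest value in TREM2- replicate 1 but varied less within TREM2+ than Alb did. Its log2 fold change was 0.63 ± 0.62. Vtn, which encodes vitronectin, an adhesive plasma protein, stood at 21.3, 8.22 and 10.7 TPM against 32.2, 2.11 and 4.98 TPM, with a log2 fold change of 0.65 ± 0.76. Of the other carriers, Ahsg, Ambp, Gc and Ttr, which encode fetuin-A, the bikunin precursor, the vitamin D binding protein and transthyretin, each had the same 2 highest libraries as Alb. Their level in TREM2- replicate 1 was between 4.66 (Ambp) and 9.37 (Ttr) times the mean of the other TREM2- libraries.

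Rbp4, the retinol-binding protein, departed from that order. It stood at 42.0, 21.2 and 12.9 TPM in TREM2+ and at 49.3, 82.8 and 15.9 TPM in TREM2-, so that TREM2- replicate 2, the lowest library for most mature members, was its highest. The log2 fold change was -0.81 ± 0.59.

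Apolipoprotein genes also stood highest in TREM2- replicate 1 and second in TREM2+ replicate 1. Apoa1, the main protein of high-density lipoprotein, reached 155, 55.3 and 44.5 TPM in TREM2+ and 192, 25.0 and 27.3 TPM in TREM2-. Apoa2 was the most abundant member in TREM2- replicate 1 with 278 TPM, and stood at 47.4 and 63.4 TPM in TREM2- replicates 2 and 3 and at 168, 65.6 and 73.1 TPM in TREM2+. Apoc3, which inhibits lipoprotein lipase, ran from 5.69 to 32.0 TPM. Apob, the structural protein of low-density lipoprotein, was barely detected, with 0.335 to 1.14 TPM over its long transcript, and was not tested.

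Protease inhibitors and fibrinogen chains showed the same pair of high libraries. Serpina3k, a liver serpin, stood at 90.4, 31.1 and 35.8 TPM in TREM2+ and at 120, 13.2 and 14.4 TPM in TREM2-, with a log2 fold change of 0.68 ± 0.77. The alpha-1-antitrypsin copies Serpina1a, Serpina1b and Serpina1c lay between 1.94 and 27.1 TPM, and each was highest in TREM2- replicate 1 and second in TREM2+ replicate 1. Their separate levels are uncertain, because 57.6%, 29.5% and 74.2% of the 50-base stretches of their transcripts also occur in transcripts of other genes. The copies outside the set, Serpina1d and Serpina1e, reached 71.5 and 120 TPM in TREM2- replicate 1 and were second highest in TREM2+ replicate 1, at 46.6 and 65.4 TPM. Itih4, of the inter-alpha-trypsin inhibitor family, ran from 1.24 to 10.8 TPM.

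Fga, Fgb and Fgg encode the 3 chains of the clotting protein fibrinogen. Fga stood at 23.7, 9.37 and 14.2 TPM in TREM2+ and at 33.1, 3.52 and 5.37 TPM in TREM2-, with a log2 fold change of 0.66 ± 0.68. Fgb reached 48.5, 19.6 and 32.3 TPM against 74.1, 16.5 and 18.3 TPM, and Fgg reached 43.9, 15.5 and 32.5 TPM against 68.1, 11.1 and 15.0 TPM. All 3 chains were higher in TREM2+ replicate 3 than in TREM2+ replicate 2, where Alb differed little (22.7 and 21.5 TPM).

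Major urinary proteins, lipocalins that mouse liver secretes and that carry pheromones in urine, varied most. Mup20 stood at 167, 65.3 and 31.7 TPM in TREM2+ and at 228, 4.19 and 19.8 TPM in TREM2-, a range of 54.4-fold from 29 to 1885 reads. Mup3 stood at 140, 46.5 and 37.5 TPM against 189, 8.16 and 11.4 TPM, a range of 23.1-fold. The log2 fold changes were 1.29 ± 1.18 for Mup20 and 1.19 ± 1.03 for Mup3. Their reads may be shared with near-identical copies, since 50.5% of the 50-base stretches of Mup20 and 13.3% of those of Mup3 occur in other genes. Without both libraries numbered 1, a setting chosen after seeing the data, Mup3 was the 1 member called, with a log2 fold change of 2.01 ± 0.30 and an adjusted p of 0.024 in limma, where 0.938% of all genes were called higher.

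**Figure D3:**
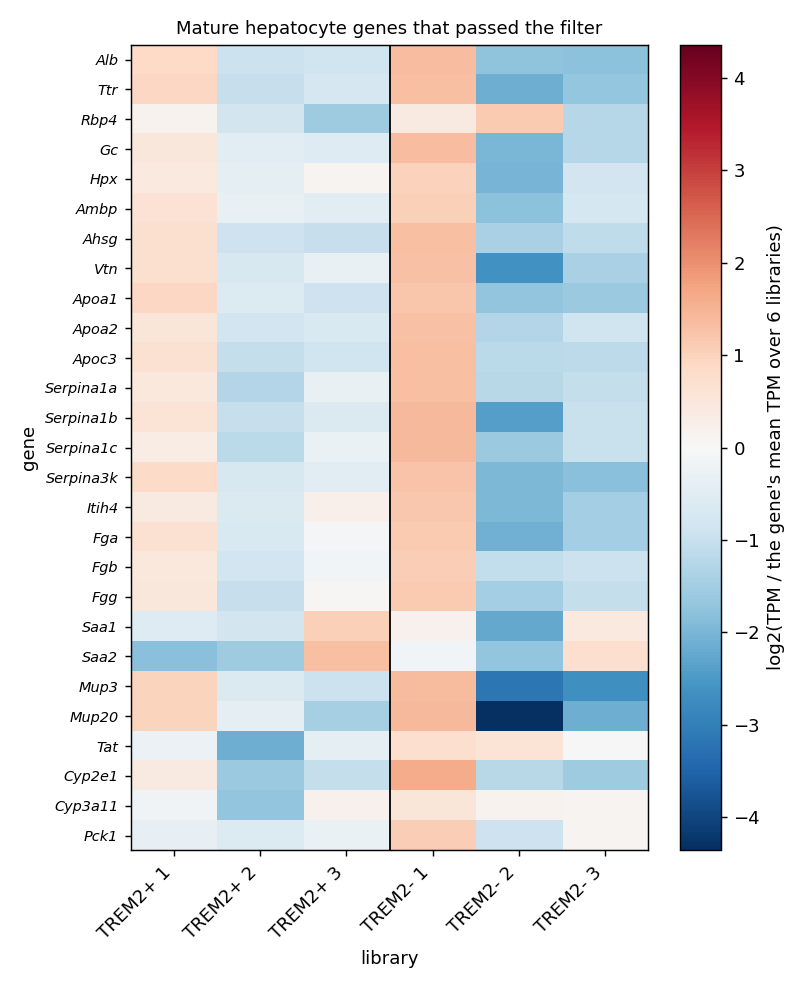
Level of the 27 mature hepatocyte genes tested (rows) in the 6 libraries (columns) as log2 of the TPM over the gene's own mean TPM, red above and blue below that mean; no test is shown. Both libraries numbered 1 are the 2 highest for 21 of the 27 genes; the exceptions are Rbp4, Saa1, Saa2, Tat, Cyp3a11 and Pck1.

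Liver enzymes were mostly low. Cyp2e1, a cytochrome P450 that oxidises ethanol and small solvents, stood at 21.9, 5.46 and 8.16 TPM in TREM2+ and at 51.5, 7.27 and 5.69 TPM in TREM2-, with a log2 fold change of -0.37 ± 0.76. Against the summed secreted genes (carriers, apolipoproteins, protease inhibitors and fibrinogen chains) Cyp2e1 was 2.35%, 1.51% and 1.95% in TREM2+ and 3.76%, 2.73% and 2.16% in TREM2-, and the groups overlapped. Against Alb alone it was 0.295, 0.254 and 0.36 in TREM2+ and 0.497, 0.593 and 0.479 in TREM2-, with no overlap. On that scale Serpina3k was 1.21, 1.45 and 1.58 in TREM2+ and 1.16, 1.07 and 1.21 in TREM2-. Its groups thus all but touched, with equal rounded values in TREM2+ replicate 1 and TREM2- replicate 3. The other genes set against Alb, a chosen few, overlapped. The share of all genes on that scale was not computed.

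Tat, tyrosine aminotransferase, was the only member whose groups did not overlap, at 4.32, 1.17 and 3.95 TPM in TREM2+ and at 8.58, 7.70 and 5.11 TPM in TREM2-. Of all genes tested, 7.62% lay lower in TREM2+ without overlap and 9.07% higher. The log2 fold change of Tat was -1.05 ± 0.37 and the adjusted p, from limma, was 0.254, short of the threshold. Tat did not follow Alb: it stood at 7.70 TPM in TREM2- replicate 2, where Alb had its second lowest value. Pck1, the gluconeogenic PEP carboxykinase, ran from 1.41 to 5.50 TPM and Cyp3a11, a drug-metabolising P450, from 0.275 to 1.3 TPM.

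Members under the filter were few in reads. Cps1, the first enzyme of the urea cycle, had 4 to 41 reads per library and G6pc, glucose-6-phosphatase, 0 to 7 reads. Hnf4a, the nuclear receptor that maintains hepatocyte identity, had 6 to 22 reads and 0.194 to 0.591 TPM. Its highest libraries were TREM2+ replicate 1, at 0.591 TPM and 22 reads, and TREM2- replicate 2, at 0.583 TPM and 21 reads.

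Serum amyloid A genes, acute-phase apolipoproteins of the liver, followed another order. Saa2 stood at 4.59, 5.52 and 40.3 TPM in TREM2+ and at 14.9, 4.95 and 26.9 TPM in TREM2-, so both libraries numbered 3 were highest. Saa1 was also highest in them, at 34.8 TPM in TREM2+ and 22.7 TPM in TREM2-, with 9.74 and 11.6 TPM in the other TREM2+ and 3.63 and 19.2 TPM in the other TREM2- libraries. The log2 fold changes were 0.38 ± 0.65 for Saa1 and -0.27 ± 0.78 for Saa2. Of the 50-base stretches of Saa1, 31.5% occur in other genes, mainly Saa2, so the split of reads between them is uncertain. The repeat family stood at its highest in the same libraries, at 17.50% and 24.60% against 0.43% to 12.93% in the other 4; its part in these values was not tested.

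Over the 31 mature members, TREM2- replicate 1 was highest for 27, and both libraries numbered 1 lay above the other 4 for 22. Among the 27 tested this held for 21, where it held for 15.7% of all genes tested. TREM2- replicate 2 was lowest for 21 of the 31. In the pairs of one number, 30 of 31 members were lower in TREM2+ than in TREM2- replicate 1, 24 were higher in TREM2+ than in TREM2- replicate 2, and 25 were higher in TREM2+ than in TREM2- replicate 3. The balance of the estimates, 16 positive and 11 negative, turned with single libraries. It was 5 positive and 21 negative without TREM2- replicate 2, and 11 and 16 when TREM2+ replicate 1 was dropped. Dropping TREM2- replicate 1 gave 22 positive and 4 negative, with 0 called. In that fit 13 of the 26 were higher at an unadjusted p under 0.05, as were 10.6% of all genes.

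Other hepatocyte genes, from lists that hold no member, showed the same order in part. Among the other coagulation genes tested, 10 of 14 were highest in both libraries numbered 1. So were 7 of 10 complement, 6 of 8 lipoprotein and 5 of 12 bile acid and xenobiotic genes. The counts were 2 of 16 for urea cycle and amino acid, 4 of 14 for acute-phase and 0 of 2 for transcription factor genes. The order held for 15.7% of all genes tested. Kng1, the kininogen gene, stood at 34, 11.7 and 18.3 TPM in TREM2+ and at 45.4, 4.75 and 7.13 TPM in TREM2-. Fabp1, the liver fatty acid binding protein, reached 664 TPM in TREM2- replicate 1 and 226 TPM in TREM2+ replicate 1, and lay between 49.2 and 95.6 TPM in the other 4. Among 16 hepatocyte transcription factor genes only Cebpa and Creb3l3 passed the filter, and neither was called.

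In the 9 lists of other hepatocyte, tumour and biliary genes limma called 3 genes higher and 0 lower in TREM2+. Of all genes tested 2.05% were called higher and 0.37% lower. The 3 genes did not follow Alb. F7, coagulation factor VII, rose from 12.9 ± 2.76 to 39.1 ± 10.8 TPM (log2 fold change 1.52 ± 0.27, adjusted p 0.0237), 1 of 14 coagulation genes tested, whose median was 0.30. Apoc1 rose from 93.2 ± 6.92 to 241 ± 72.2 TPM (1.32 ± 0.25, adjusted p 0.0287), 1 of 8 lipoprotein genes with a median of -0.23. C4b, complement component C4, rose from 6.69 ± 1.23 to 17.9 ± 5.19 TPM (1.27 ± 0.26, adjusted p 0.0423), 1 of 10 complement genes with a median of 0.22. These genes are known to be expressed by macrophages as well as by hepatocytes. Leaving out 1 library changed the number of listed genes called higher: it was 0 when TREM2+ replicate 1, TREM2- replicate 1 or TREM2- replicate 3 was dropped, 1 when TREM2+ replicate 2 was, 2 for TREM2+ replicate 3 and 3 for TREM2- replicate 2.

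In the list of other acute-phase genes 0 of 14 were called. Hp, haptoglobin, a gene also known from granulocytes, stood at 903, 1193 and 612 TPM in TREM2+ and at 1579, 2209 and 1563 TPM in TREM2-, far above Alb and with no overlap. Its log2 fold change was -1.02 ± 0.30 with an adjusted p of 0.15, and 7.62% of all genes tested lay lower in TREM2+ without overlap. The urea cycle and amino acid enzymes had a median of -0.33 over 16 genes and the bile acid and xenobiotic genes one of -0.21 over 12, with 0 called in each. Mat1a, which makes S-adenosylmethionine, stood at 9.76, 8.94 and 7.72 TPM in TREM2+ and at 22.5, 15.2 and 14.6 TPM in TREM2-, with a log2 fold change of -0.89 ± 0.24 and an adjusted p of 0.12.

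Relative to the summed secreted genes, the gene itself left out, a scale added after seeing the data, few hepatocyte genes separated the groups. Fga was the 1 member without overlap, at 2.61%, 2.66% and 3.51% of the sum in TREM2+ and 2.48%, 1.34% and 2.08% in TREM2-. Adh1, an alcohol dehydrogenase, lay lower in TREM2+, at 2.01%, 2.48% and 3.64% against 4.51%, 4.28% and 5.91%, as did Fbp1, a gluconeogenic phosphatase, at 1.67%, 3.1% and 3.08% against 3.13%, 4.17% and 6.54%. On this scale 1.36% of all genes tested lay lower and 1.91% higher without overlap.

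Oncofetal genes were low: Afp and Gpc3 stayed under 4 TPM in every library, and H19 and Igf2 had at most 2 reads. Among the members, the label of liver tumour transcripts thus rests on little signal. Afp (chromosome 5, 90490737 to 90508907) stood at 3.31, 2 and 2.03 TPM in TREM2+ and at 1.77, 3.30 and 1.94 TPM in TREM2-, from 42 to 86 reads. It varied 1.88-fold over the libraries while its neighbour Alb varied 8.72-fold, and TREM2- replicate 1, the highest for Alb, was its lowest. The log2 fold change of Afp was 0.06 ± 0.29, with a 95% interval from -0.59 to 0.70, and its sign changed with the scaling and with the library left out. Gpc3, a cell-surface proteoglycan used as a liver cancer marker, stood at 1.25, 1.72 and 0.405 TPM against 2.79, 1.25 and 0.982 TPM, from 7 to 67 reads, with a log2 fold change of -0.32 ± 0.36.

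H19, an imprinted noncoding RNA, had 2, 0 and 2 reads in TREM2+ and 0, 1 and 0 reads in TREM2-. Igf2, a fetal growth factor, had 0 reads in all 6 libraries, which allows a level of up to 0.0588 to 0.0816 TPM per library at 3 reads, for counting error only. The Igf2 value is limited by its annotation, since 64.5% of its exon bases lie in exons of other genes, mainly Gm49394, which was also at 0 reads. Of 22 other oncofetal and liver tumour genes 8 were tested and 0 called, with a median log2 fold change of -0.16. The fetal RNA-binding genes Igf2bp1 and Lin28b and the imprinted Dlk1 stayed under 1 TPM in every library. Others of this list stood higher: Igf2bp2 ran from 0.966 to 3.03 TPM, Ly6d from 31.4 to 198 TPM and Cd24a from 79.5 to 309 TPM. Which cells these transcripts came from was not tested.

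**Figure D4:**
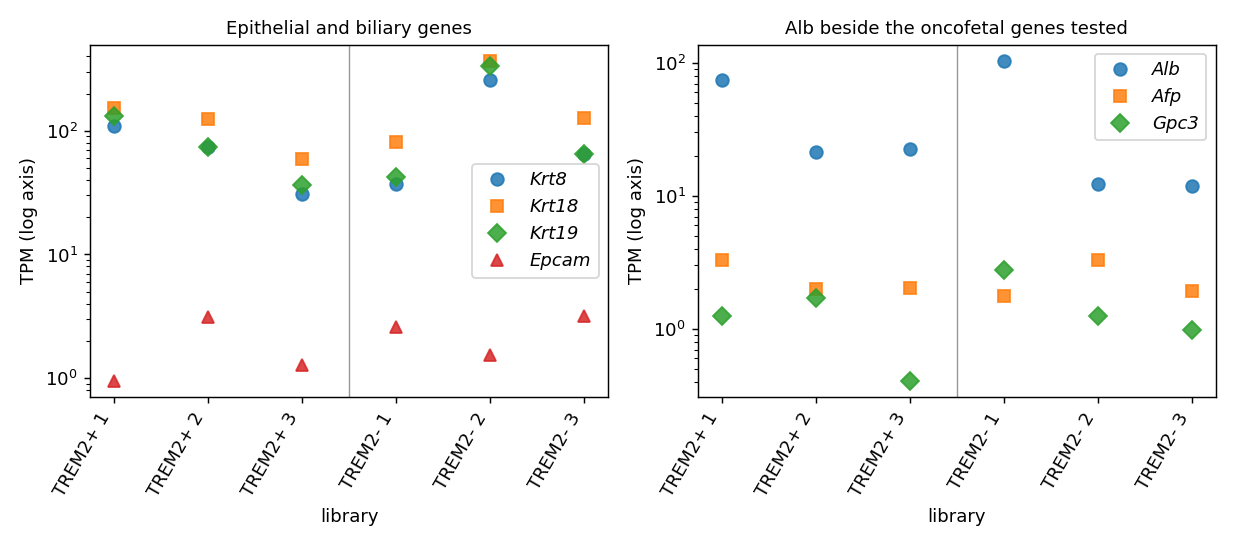
TPM (log axes) by library for Krt8, Krt18, Krt19 and Epcam (left) and for Alb, Afp and Gpc3 (right), with 3 TREM2+ libraries left and 3 TREM2- libraries right of the grey line. The 3 keratins peak in TREM2- replicate 2 while Epcam stays between 0.946 and 3.19 TPM, and Afp stays between 1.77 and 3.31 TPM while Alb runs from 11.9 to 104 TPM.

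Keratin genes were abundant and followed neither the hepatocyte genes nor the TREM2 label. Krt19 (chromosome 11, 100140810 to 100148665) stood at 132, 74.1 and 36.4 TPM in TREM2+ and at 42.4, 332 and 64.4 TPM in TREM2-. Krt8 stood at 109, 74.4 and 30.9 TPM against 37.1, 258 and 64.8 TPM, and its partner Krt18 at 152, 125 and 59.6 TPM against 80.6, 369 and 128 TPM. TREM2- replicate 2 was highest for all 3, with 4587 reads of Krt19, and TREM2+ replicate 3 lowest. Mature hepatocyte genes were mostly at their lowest in that same TREM2- library. The log2 fold changes were -0.44 ± 0.72 for Krt19, -0.43 ± 0.68 for Krt8 and -0.58 ± 0.54 for Krt18, and without TREM2- replicate 2 they were 0.44, 0.36 and 0.04.

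Most other bile duct genes did not come with the keratin signal. Epcam, an adhesion molecule of bile duct and progenitor cells, stood at 0.946, 3.13 and 1.28 TPM in TREM2+ and at 2.61, 1.53 and 3.19 TPM in TREM2-, with a log2 fold change of -0.35 ± 0.35. It was not raised in TREM2- replicate 2. Of the 15 other biliary and epithelial genes listed, 4 passed the filter and 0 were called, with a median log2 fold change of -0.60. Krt7, Cftr and Pkhd1, which mark bile ducts, stayed under 1 TPM in every library, and 1 listed gene, Cldn4, had 0 in all 6. Krt23, another listed keratin, did peak in the same library as the others, at 2.65, 1.61 and 0.498 TPM in TREM2+ and 0.215, 12.2 and 1.19 TPM in TREM2-, highest in TREM2- replicate 2. At lower levels Sox9, a biliary transcription factor, and Ehf, an epithelial one, were also highest in that library, at 1.3 and 1.08 TPM. Neither passed the filter. Relative to the summed secreted genes, Sox9 was 0.487% and 0.342% and Ehf 0.406% and 0.391% in TREM2- replicates 2 and 3. Muc1 and Elf3, of the same list, were highest elsewhere on that scale, in TREM2- replicate 3 (0.377%) and TREM2+ replicate 2 (0.28%). The 4 members of this class are therefore called epithelial genes by their keratins, and no bile duct cell is inferred from them.

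Markers of other cell types moved in their own ways beside the members. The summed level of 12 sinusoidal endothelial genes was 255 to 356 TPM in TREM2+ and 27.6 to 56.3 TPM in TREM2-, with 10 of 12 called higher. That of 8 Kupffer cell genes was 1085 to 2119 TPM against 170 to 285 TPM, with 8 of 8 called higher. Over all genes tested, 2.05% were called higher. Clec4g, a sinusoidal endothelial lectin, stood at 159 ± 32.8 against 13.2 ± 5.88 TPM. Neither Alb nor the keratins separated the groups in that way. Stellate cell and fibroblast genes summed to 291 to 851 TPM in TREM2+ and 96.8 to 399 TPM in TREM2-, nearly all of it Ecm1, and 0 of 2 tested were called. Of 13 endothelial genes listed, 12 had a row in the deposited table. No gene of these 3 lists that had a row was at 0 in all 6 libraries.

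Other markers did stand high in the library with most hepatocyte RNA. All 10 T and NK cell genes and all 7 B and plasma cell genes listed were highest in TREM2- replicate 1, with summed levels of 3861 TPM against 1705 and 1758 TPM, and of 961 TPM against 170 and 499 TPM, in TREM2- replicates 1, 2 and 3. TREM2+ replicate 1, second for hepatocyte genes, was not raised in either, at 1172 TPM of 1114 to 1172 TPM and at 274 TPM of 273 to 375 TPM. Neutrophil genes summed to 15987 to 19767 TPM in TREM2+ and 19176 to 22233 TPM in TREM2-, and erythroid genes to 4230 to 26389 TPM and 8625 to 30661 TPM, lowest in TREM2+ replicate 1. None of the genes of these 4 lists was called or at 0 in all 6 libraries. Mitochondrially encoded transcripts stood at 12.35% and 10.02% in both libraries numbered 1 and at most 6.72% elsewhere. Over the 6 libraries they stood in the order of the mature hepatocyte sum. Read depth was also highest in both libraries numbered 1 but did not follow the sum elsewhere. TREM2- replicate 2, lowest in the sum, had 15357291 reads and TREM2+ replicate 3 had 12542144. The part of mitochondrial share and depth in the result was not tested.

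**Figure D5:**
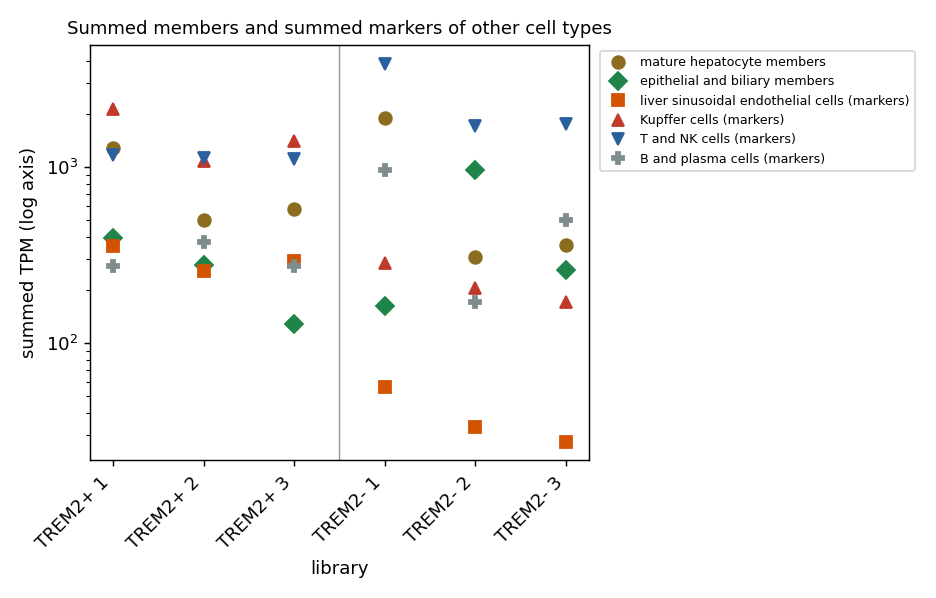
Summed TPM (log axis) per library of the mature hepatocyte members, the epithelial and biliary members, and the listed markers of 4 other cell types, with TREM2+ libraries left and TREM2- libraries right of the grey line. Endothelial and Kupffer cell markers separate the groups, whereas the mature hepatocyte sum (306 to 1887 TPM) and the epithelial and biliary sum (128 to 960 TPM) do not.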

How the data were processed

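RNA of tumour-associated macrophages from mouse liver tumours was sequenced in 3 TREM2+ and 3 TREM2- libraries from polyadenylated RNA, with paired ends, per the labels. The submitters' processing notes name STAR 2.7.10a, Subread, featureCounts 2.0.3 and the build mm10. Which annotation, strand setting and formula they used is not given in the sources used here. Although named TPM, the table that the authors deposited has 6 columns that sum to 1000000 together, so the deposited values are a length-scaled signal that was not scaled per library. Each library was rescaled here to 1000000. Multiplying by GENCODE M21 exon length gave whole reads, within 0.01 read in all 6 libraries, for 98.7% of the 36673 matched rows above 0 and for all 39 members. Without a stated strand setting, reads of overlapping genes cannot be told apart.

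The test was limma 3.58.1 in R 4.3.3, two-sided, fitted with a trended prior variance to log2(TPM + 1) of all genes that reached 1 TPM in 3 or more libraries. P-values were adjusted by Benjamini and Hochberg over all genes tested, and a gene was called below 0.05. This scale understates changes of low genes. Errors after log2 fold changes are SE, those after TPM are SD with n = 3. The fit was also run on simulated reads with known changes. There each gene varied on its own, so a spread shared by many genes of a library was not covered. All members are named, and of each other list up to 3 genes with the smallest p, or of each marker list up to 2 with the highest mean; others were named after their values were seen. Members and lists were chosen with earlier results of these data known. Alternatives covered the pseudocount, filter, scaling, threshold, variance model, replicate block, voom and libraries left out. Reads carry no molecular identifiers used here, so read limits cover counting error only.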

Additional observations from a re-analysis of the deposited data

How the results depend on the processing

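Of 714 estimates of the 33 members tested under 22 other settings, 633 kept direction and call, 75 changed sign and 6 became called. The 6 were Fga, Hpx, Mup20, Mup3 and Vtn with library weights, and Mup3 without both libraries numbered 1, a setting chosen after seeing the data. So 5 members were called higher with library weights, where 9.9% of all genes were called, and 1 without both libraries numbered 1. In every other setting 0 were called. Leaving out 1 library moved the mean mature sum between 539 and 933 TPM in TREM2+ and between 333 (without TREM2- replicate 1) and 1123 TPM in TREM2-, and the mean epithelial and biliary sum of TREM2- fell from 461 to 211 TPM without TREM2- replicate 2. Leaving out 1 library gave log2 fold changes from -0.18 to 1.39 for Alb, -0.04 to 1.42 for Hpx, -0.07 to 1.64 for Vtn, -0.37 to 0.81 for Saa1, -1.19 to 0.25 for Saa2, -0.91 to 0.57 for Cyp2e1, -0.12 to 0.25 for Afp, -1.02 to 0.36 for Krt8, -1.05 to 0.04 for Krt18 and -1.03 to 0.44 for Krt19. Cyp2e1 turned to 0.72 with library weights and to 0.05 without both libraries numbered 1, where Saa2 turned to 0.35. Afp turned to -0.08 with library weights, -0.24 without both libraries numbered 1, 0.00 on the deposited values and -0.01 with the repeat family left out. The causes were not tested.

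Counts over all genes moved more. Higher and lower genes numbered 95 and 3 with no filter, 976 and 389 with library weights, 443 and 171 with voom, 425 and 89 at an adjusted p under 0.1, 0 and 0 without both libraries numbered 3, and 118 and 8 without both libraries numbered 1. Lower genes numbered 31 with a pseudocount of 0.1, 80 with median-of-ratios and 97 with trimmed-mean scaling, 92 on the deposited values and 101 without the repeat family. Leaving out 1 library gave 116 to 342 higher and 7 to 105 lower genes. Of the other listed hepatocyte, tumour and biliary genes, 0 were called higher with no filter, on the deposited values, with the block, and without both libraries numbered 3 or 1, while 9 were with library weights. There were 1 lower with median-of-ratios scaling, trimmed-mean scaling and without the repeat family, and 2 with library weights and with voom. Leaving out 1 library gave 0 to 3 higher and 0 to 1 lower. With the replicate block 116 genes were higher and 10 lower, and 0 members were called. Replicate numbers were not taken as pairs in the main fit, since the labels do not say that a number marks a shared animal or tumour. The correlation of deviations from the group means was 0.19, -0.03 and 0.22 for numbers 1, 2 and 3. TREM2+ replicates 1 and 3 each correlated best with the TREM2- library of the same number, and TREM2+ replicate 2 with TREM2- replicate 3 (0.13). Whether a number marks a shared source was not tested. Low read numbers limit Cps1, G6pc, Hnf4a, H19, Igf2 and Gpc3 among others.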

Other observations

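Genes in the library order of Krt19 were listed after that order was seen. Of the 13788 genes tested, 33 (0.239%) stood in exactly the same order over the 6 libraries, and 16 of them reached at least 10 TPM. By the range over libraries they were led by Lgals2, a galectin, Msln, which encodes mesothelin, and Prss2, a trypsinogen, ahead of Krt19 and Krt8. Msln stood at 10.5, 5.08 and 2.49 TPM in TREM2+ and at 3.55, 49.3 and 4.67 TPM in TREM2-. Prss2 stood at 25.9, 8.09 and 2.29 TPM against 3.17, 44.3 and 6.1 TPM. Wfdc2, a secreted epithelial protein gene, and Igfbp3, an IGF-binding protein gene, were also among the 16. So were Pik3ip1 and Fkbp5, with ranges of 8.12-fold and 8.02-fold beside 6.03-fold for Wfdc2. Ms4a8a, of the MS4A membrane family, stood at 312, 214 and 69.8 TPM in TREM2+ and at 76.4, 419 and 198 TPM in TREM2-. Dpep2 stood at 167, 116 and 47.6 TPM against 51.5, 226 and 95.7 TPM. The list, picked by this order, thus held genes other than keratins. How many genes would share 1 order by chance was not computed. Krt18 itself was not in exactly this order, at 128 TPM in TREM2- replicate 3 and 125 TPM in TREM2+ replicate 2.

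Krt20, named after its values were seen, peaked in the same library. It stood at 42.6, 25.3 and 7.36 TPM in TREM2+ and at 6.75, 112 and 19.5 TPM in TREM2-. Mup7 and Mup21, urinary protein genes outside the set, were also highest in both libraries numbered 1, with 23 and 6.63 TPM in TREM2- replicate 1, 14.7 and 7.86 TPM in TREM2+ replicate 1, and at most 5.7 and 1.86 TPM in the other 4 libraries. Mup3 shares some of its 50-base stretches with Mup21, so these reads may be divided between them. No cause was tested for any of these.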
